A study of Homo sapiens with 6 samples.

Results

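The insulin and insulin-like growth factor (IGF) axis was followed through 10 genes in RL95-2 cells kept with or without adipocyte-conditioned medium (ADP-CM). The genes were taken by symbol from the count tables, where each of the 10 matched 1 row of the 23228 genes listed. They encode 3 receptors (INSR, IGF1R and IGF2R), 2 docking proteins (IRS1 and IRS2), 1 adaptor that restrains the receptors (GRB10) and 4 IGF-binding proteins (IGFBP2, IGFBP3, IGFBP4 and IGFBP6). RL95-2 is an established human endometrial carcinoma cell line. Control cells stood for 24 h in a serum-free 1:1 mixture of RPMI and DMEM, and ADP-CM cells for the same 24 h in serum-free RPMI mixed 1:1 with medium in which mature adipocytes isolated from human adipose tissue had been kept. Each group had 3 libraries, all from the same line, and the labels do not say that they came from separate cultures, so p-values measure the spread between these libraries, which may be technical.

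Insulin binds INSR, a receptor tyrosine kinase, and IGF1 and IGF2 bind the closely related IGF1R. Both receptors recruit IRS proteins, which pass the signal to PI3K and AKT and, with SHC and GRB2, to RAS and ERK. IGF2R has no kinase domain and carries IGF2 and mannose 6-phosphate-tagged enzymes to lysosomes, while the secreted IGFBPs hold IGFs outside the cell and are themselves cut by proteases. In the endometrium the axis is known as a growth pathway, and high insulin is a known companion of obesity and of endometrioid carcinoma.

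The libraries held 16262614 to 18363033 reads on genes. Reads on no annotated gene made up 10.2% to 10.3% of all reads in control and 11.5% to 11.6% in ADP-CM libraries, so this share was apart between the groups. Of the 8 epithelial markers, all were tested, and their summed level was 5661 to 5818 CPM (read counts scaled to a common library size) in control and 4963 to 5064 in ADP-CM libraries, with 5 markers lowered and 1 raised. The 12 adipocyte markers summed to at most 1.47 CPM in any library, with ADIPOQ, LEP, CIDEA and AQP7 at 0 reads in all 6 libraries. The 9 stromal markers summed to 61.7 to 68.6 CPM in control and 79.1 to 79.6 in ADP-CM. COL1A1 (62.4 and 76.7 CPM on average) made up most of this and was raised, as 1 of the 2 tested, and THY1 was at 0. Leukocyte markers summed to 7.08 to 8.53 and 9.98 to 12.2 CPM, nearly all from CD68 (7.43 and 10.7 CPM on average). CD68 was the only one tested and was raised, while PTPRC, CD3E and LYZ had at most 3 reads in any library. Endothelial markers summed to 60.7 to 66.4 and 54.5 to 61.6 CPM, nearly all from CDH5 (63.5 and 58.6 CPM on average). CDH5 was the only one tested and was not called, with KDR at 0 and PECAM1 at no more than 1 read. All libraries came from the same cell line, and the paper states that a syringe filter was used to collect the ADP-CM. Carry-over of adipocyte material with the medium was not tested. The part that any of these marker shifts had in the results was not tested. Bulk RNA alone cannot tell a change in the number of cells of a kind from a change in RNA per cell.

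ADP-CM shifted 6 of the 10 genes past the threshold, all by less than 1.5-fold. GRB10, IGF1R, IRS1 and IGFBP3 were raised, and INSR and IGFBP2 were lowered. IGF2R, IRS2 and IGFBP4 were tested but not called, and IGFBP6 had too few reads to be tested. The call, raised or lowered, was made by edgeR's quasi-likelihood test at 0.01 after Benjamini-Hochberg adjustment of p over 12663 tested genes. At that limit 26.5% of all tested genes were called, 13.5% raised and 13% lowered. The 4 raised and 2 lowered among the 9 tested genes are to be read against those shares. The 10 genes were chosen with earlier results of these data known, so the shares are a background and not a test. With the added fold limit of 1.5, 0 of the 9 genes passed in edgeR and in DESeq2 alike. Of all tested genes, 2.27% passed it in edgeR (1.14% raised and 1.14% lowered). The groups did not overlap for 7 of the 9 tested genes, where 45.5% of all tested genes had no overlap. The median size of the log2 fold change was 0.106 over all tested genes, and 4.79% of them moved at least as far as GRB10.

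**Figure D1:**
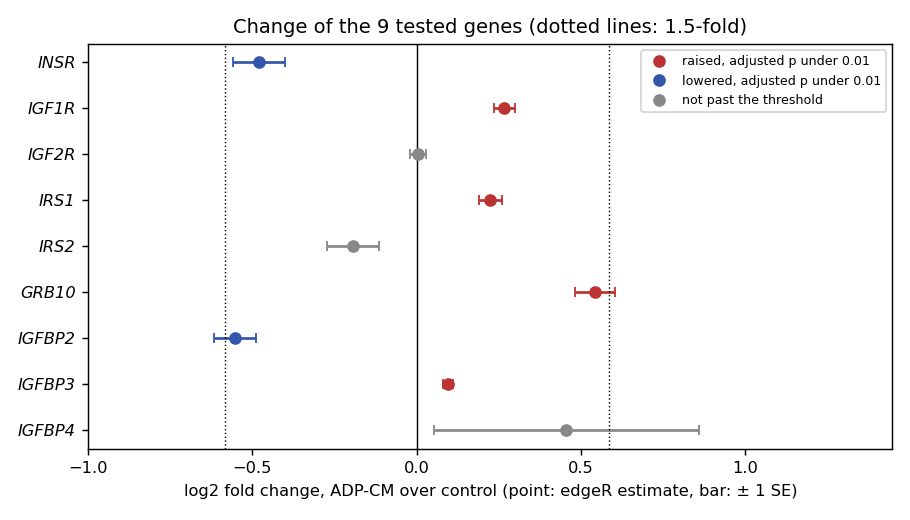
Log2 fold change of ADP-CM over control for the 9 tested genes, with the edgeR estimate as a point and 1 standard error as a bar. GRB10 (0.54) and IGFBP2 (-0.55) lie closest to the dotted 1.5-fold lines, and the bar of IGFBP4 is far wider than any other.

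Of the receptors, INSR fell while IGF1R rose and IGF2R stayed within its spread. INSR, the insulin receptor (GRCh37 chromosome 19, 7112266 to 7294425, minus strand), was counted 277, 267 and 315 times in the control replicates and 223, 225 and 224 times with ADP-CM, or 17.1, 15.8 and 18.4 against 12.3, 12.3 and 12.2 TMM-normalized CPM. Every ADP-CM library lay below every control library, and the ADP-CM libraries were nearly level with each other. The level was 1.40-fold lower, with a log2 fold change (SE) of -0.48 (0.08) and an adjusted p of 1.23e-06 by edgeR. Gene-level counts do not separate the A and B splice forms of INSR, which differ in their affinity for IGF2.

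IGF1R, the main receptor for both IGFs (chromosome 15, 99191768 to 99507759, plus strand), had 105.1, 104.3 and 107.2 CPM in control and 123.8, 127.5 and 129.6 in ADP-CM. The groups were again apart, in the direction opposite to INSR. Its log2 fold change (SE) was 0.27 (0.03), with an adjusted p of 2.4e-10 by edgeR. IGF2R (chromosome 6, 160390114 to 160534539, plus strand) had 265.4, 279.0 and 267.3 CPM in control and 273.8, 272.8 and 267.3 in ADP-CM. The groups overlapped, and the log2 fold change was 0.004 with a 95% interval of -0.044 to 0.051 (edgeR, adjusted p-value 0.927). A pseudogene shares 2.5% of the annotated exonic bases of IGF2R on the same strand.

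Within each library, the level of INSR per kb of exon was set against that of IGF1R, a ratio that does not depend on how libraries are scaled. It was 0.209, 0.195 and 0.221 for the control replicates in order, and with ADP-CM it was 0.128, 0.124 and 0.121. The ratio was thus lower in each ADP-CM library than in any control library, with means of 0.208 ± 0.0130 and 0.124 ± 0.00354 (SD, n = 3 each). No test was run on it, since INSR and IGF1R had already been tested and 3 libraries against 3 allow few permutations. IGF2R stood at 1.58 ± 0.0600 times IGF1R per kb in control and 1.32 ± 0.0456 times in ADP-CM (SD, n = 3 each). This level depends on the length used, being 2.21 ± 0.0837 and 1.84 ± 0.0636 times with the longest transcript in place of the union of exons.

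The start sites of these receptors are shown because INSR and IGF1R moved in opposite directions. Each line gives the 250 bases before the RefSeq start site (GRCh38.p14), INSR at chr19:7294415-7294664 on the minus strand and IGF1R at chr15:98648289-98648538 on the plus strand, with matches to the GC box GGGCGG in capitals, on either strand and overlaps counted.
INSR: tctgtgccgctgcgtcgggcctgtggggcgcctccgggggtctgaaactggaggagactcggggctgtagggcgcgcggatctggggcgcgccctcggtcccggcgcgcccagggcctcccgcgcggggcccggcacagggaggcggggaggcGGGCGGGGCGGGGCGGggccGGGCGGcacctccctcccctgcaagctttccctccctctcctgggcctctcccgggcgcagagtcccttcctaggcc
IGF1R: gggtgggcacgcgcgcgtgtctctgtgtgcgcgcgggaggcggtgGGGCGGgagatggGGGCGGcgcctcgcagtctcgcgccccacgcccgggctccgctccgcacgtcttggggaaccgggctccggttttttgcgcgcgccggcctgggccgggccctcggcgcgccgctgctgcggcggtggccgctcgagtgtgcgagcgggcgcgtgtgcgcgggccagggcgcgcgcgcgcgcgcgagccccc
INSR held 4 GC boxes and IGF1R 2, and 42.6% of the 35116 RefSeq start sites of the table have at least 1 in the same window. Neither window held the forkhead core TGTTTAC (on either strand, in 2.98% of windows) or the TATA box TATAAA (10.7%). The 2 windows were 78.4% and 81.2% G and C.

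Of the docking proteins, IRS1 rose and IRS2 did not pass the threshold. IRS1, which couples both receptors to PI3K (chromosome 2, 227596028 to 227664536, minus strand), had 77.2, 76.5 and 74.7 CPM in control and 86.9, 91.6 and 88.4 in ADP-CM. All ADP-CM libraries were above all control libraries, and the log2 fold change (SE) was 0.23 (0.04), with an adjusted p of 5.24e-07 by edgeR. IRS2, its close relative (chromosome 13, 110405042 to 110438930, minus strand), had 15.3, 14.4 and 15.9 CPM in control and 14.0, 12.7 and 13.2 in ADP-CM. These groups did not overlap either, with ADP-CM lower, but the log2 fold change (SE) of -0.19 (0.08) had an adjusted p of 0.0512 by edgeR, and 0.042 to 0.193 under the alternatives. The ratio of IRS2 to IRS1 per kb was 0.243, 0.231 and 0.262 without ADP-CM, above the 0.198, 0.170 and 0.184 found with it.

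GRB10, an adaptor that binds the activated insulin and IGF1 receptors and dampens their signal (chromosome 7, 50657760 to 50861159, minus strand), had the largest rise among the called genes of the axis. Its reads numbered 335, 332 and 362 without ADP-CM and 569, 520 and 549 with it, or 20.6, 19.7 and 21.2 against 31.4, 28.4 and 29.8 CPM. The lowest ADP-CM library was well above the highest control library. This was a 1.46-fold rise, a log2 fold change (SE) of 0.54 (0.06), with an adjusted p of 5.49e-11 by edgeR. GRB10 is imprinted in some tissues, and the counts do not tell the parental alleles apart.

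**Figure D2:**
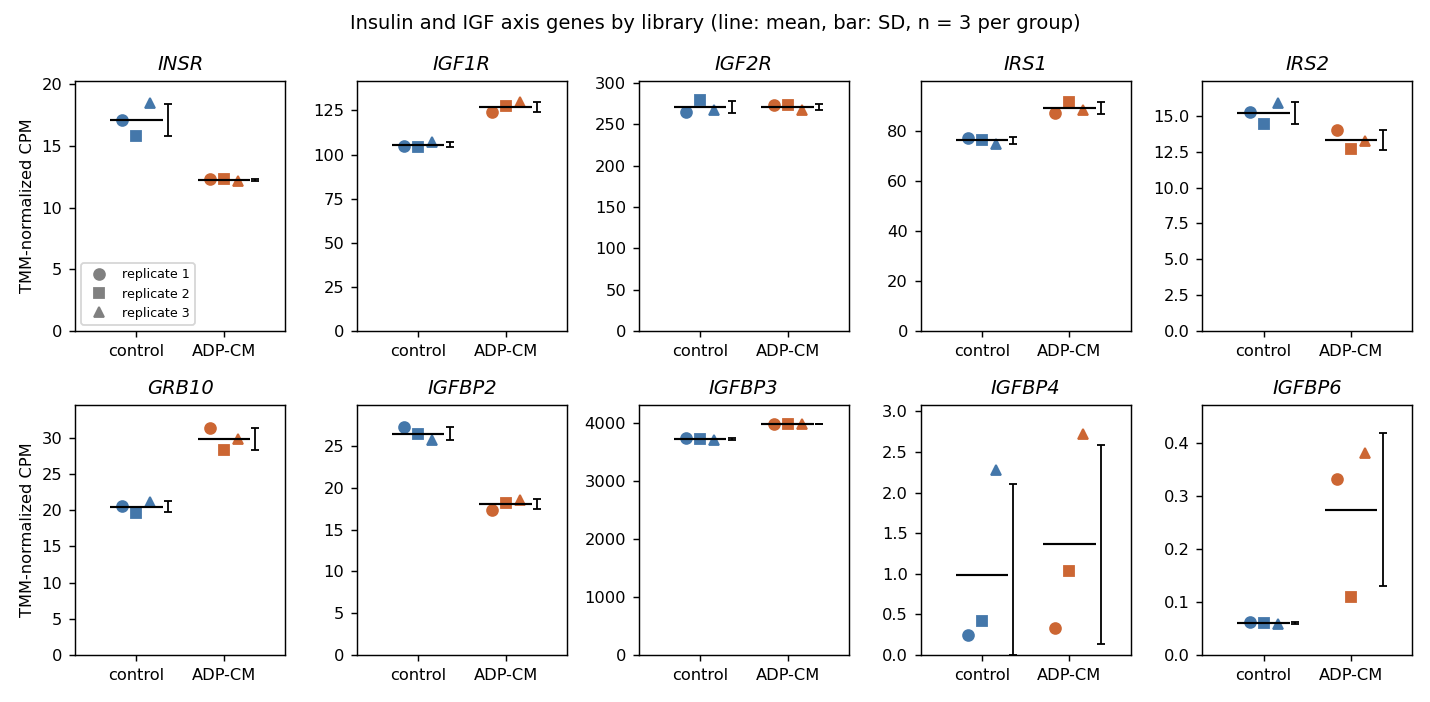
TMM-normalized CPM of the 10 genes in each library, from 0 upward, with circles, squares and triangles for replicates 1, 2 and 3, a line at the mean and a bar for the SD (n = 3 per group, cut at 0 for IGFBP4). Groups lie apart for INSR, IGF1R, IRS1, IRS2, GRB10, IGFBP2 and IGFBP3, whereas IGFBP4 is high in replicate 3 of both groups.

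The binding proteins ranged from among the most abundant transcripts of the axis to almost no reads. IGFBP3, the main carrier of IGFs in serum (chromosome 7, 45951844 to 45961473, minus strand), was counted 60776, 62871 and 63292 times without ADP-CM and 71992, 73015 and 73253 times with it. On the normalized scale this was 3746, 3723 and 3701 CPM against 3977, 3982 and 3983, so the groups were apart although the step was small. The rise was 1.07-fold, a log2 fold change (SE) of 0.10 (0.01), with an adjusted p of 2.13e-07 by edgeR. It lay between 0.092 and 0.1 under the 12 alternative settings, among them both other scalings.

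IGFBP2, a binding protein that prefers IGF2 (chromosome 2, 217497551 to 217529159, plus strand), moved the other way. It had 27.2, 26.5 and 25.7 CPM in control and 17.3, 18.2 and 18.5 in ADP-CM, with every ADP-CM library lower. It was 1.47-fold lower, a log2 fold change (SE) of -0.55 (0.06), with an adjusted p of 9.66e-11 by edgeR. With both replicates 3 left out, a setting chosen after the reads of IGFBP4 were seen, it was -0.59 and past the 1.5-fold limit.

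IGFBP6, another binding protein that prefers IGF2 (chromosome 12, 53491220 to 53496129, plus strand), had 1 read in each control library and 6, 2 and 7 reads in the ADP-CM libraries. The summed 15 reads against 3 gave a ratio of 4.58 with a 95% counting interval of 1.30 to 24.7, from an exact (Clopper-Pearson) binomial interval that covers counting error only. The gene was fitted by edgeR only with no filter on low counts, where its adjusted p-value was 0.0727.

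IGFBP4, a binding protein that is cut by the protease PAPPA (chromosome 17, 38599702 to 38613977, plus strand), varied more between libraries of a group than between the groups. Control replicates 1, 2 and 3 held 4, 7 and 39 of its reads, and those with ADP-CM held 6, 19 and 50. In CPM, with exact 95% Poisson intervals that cover counting error only, the control libraries stood at 0.247 (0.0672 to 0.631), 0.415 (0.167 to 0.854) and 2.28 (1.62 to 3.12). The ADP-CM libraries stood at 0.331 (0.122 to 0.721), 1.04 (0.624 to 1.62) and 2.72 (2.02 to 3.58). In both groups replicate 3 was the highest library, and its interval did not reach those of the others.

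The highest control library of IGFBP4 was 9.25 times the lowest and the highest ADP-CM library 8.20 times the lowest, where the largest such ratio was 1.16 among the other 8 tested genes, for INSR. Between libraries of the same number, ADP-CM was 1.34, 2.50 and 1.19 times control for replicates 1, 2 and 3, although the numbers are not known to pair the libraries. The fitted log2 fold change (SE) was 0.46 (0.40), its 95% interval ran from -0.335 to 1.247, and edgeR gave an adjusted p of 0.398. The value rested on single libraries. Without control replicate 3 it was 2.02 and past the threshold (edgeR, adjusted p-value 0.00346), and without ADP-CM replicate 3 it turned to -0.53 (adjusted p-value 0.326). Without control replicate 1 or 2 it was 0.01 or 0.09, and without ADP-CM replicate 1 or 2 it was 0.91 or 0.62. With both replicates 3 left out, IGFBP4 did not pass the filter on low counts.

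Among the 12136 other tested genes with a mean of at least 1 CPM, the 5 whose log2 CPM followed IGFBP4 most closely over the 6 libraries were GREB1, SPTSSB, S100A14, EEF1A2 and LOC730091. Likeness was the root mean square difference after centring each gene on its mean, and it ran from 0.445 for GREB1 to 0.84 for LOC730091, in log2 units over 6 libraries. GREB1, which encodes an estrogen receptor-binding protein, had 12, 19 and 51 reads in control and 22, 38 and 67 in ADP-CM. SPTSSB, a small subunit of serine palmitoyltransferase, had 18, 31 and 69 against 23, 32 and 114 reads. S100A14, a member of the S100 calcium-binding family, had 7, 10 and 38 against 17, 16 and 58 reads. EEF1A2, an elongation factor of translation, had 19, 34 and 56 against 41, 30 and 122. All 5 genes were highest in replicate 3 of each group, which largely follows from choosing them by likeness over these same libraries. None was called between the groups in the edgeR fit of all 6 libraries (adjusted p-values 0.0351 to 0.311), where EEF1A2 had an unadjusted p under 0.05. Their shifts when a library was left out also follow in part from that choice. As with IGFBP4, leaving out control replicate 3 brought GREB1 (log2 fold change 1.30), S100A14 (1.68) and EEF1A2 (1.13) past the threshold. Leaving out ADP-CM replicate 3 turned SPTSSB (-0.64), S100A14 (-0.27) and EEF1A2 (-0.15) below 0, and EEF1A2 also passed without ADP-CM replicate 1 (0.93) or 2 (1.04).

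**Figure D3:**
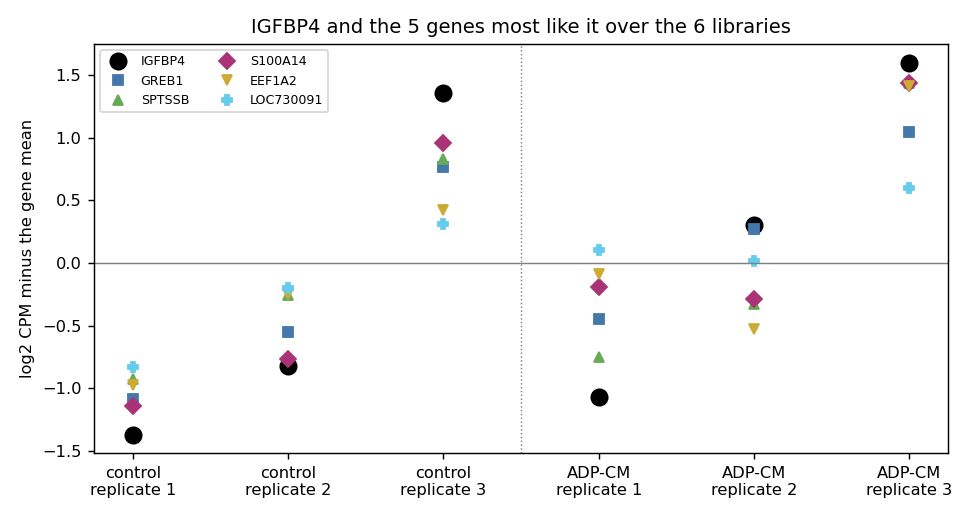
Log2 CPM of IGFBP4 and the 5 genes most like it in each of the 6 libraries, each gene centred on its own mean. IGFBP4 stands at 1.36 in control replicate 3 and 1.60 in ADP-CM replicate 3. The other genes, chosen for their likeness over these libraries, are also highest there within each group.

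The start sites of the highest and of the most variable binding protein gene are shown for comparison, again as the 250 bases before the RefSeq start site (GRCh38.p14), IGFBP3 at chr7:45921273-45921522 on the minus strand and IGFBP4 at chr17:40443200-40443449 on the plus strand. Capitals mark GC boxes (GGGCGG on either strand) and the TATA box TATAAA.
IGFBP3: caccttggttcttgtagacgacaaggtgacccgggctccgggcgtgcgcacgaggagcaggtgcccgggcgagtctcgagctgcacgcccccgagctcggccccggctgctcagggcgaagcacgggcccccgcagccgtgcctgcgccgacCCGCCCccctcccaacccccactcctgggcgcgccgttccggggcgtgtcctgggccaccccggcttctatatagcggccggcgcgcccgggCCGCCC
IGFBP4: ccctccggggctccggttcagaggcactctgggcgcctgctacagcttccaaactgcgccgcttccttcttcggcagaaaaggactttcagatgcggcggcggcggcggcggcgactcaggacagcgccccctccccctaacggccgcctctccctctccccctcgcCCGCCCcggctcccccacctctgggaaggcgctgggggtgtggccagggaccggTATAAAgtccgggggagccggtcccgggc
IGFBP3 held 2 GC boxes and 0 matches to TATAAA, and IGFBP4 held 1 of each. Only these exact letters were searched. Near matches, such as the tatatag toward the end of the IGFBP3 line, were not counted. Neither held TGTTTAC on either strand.

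Levels were compared between genes as CPM per kb of exon, with the length taken from the union of annotated exons. IGFBP3 stood far above the rest, at 815 ± 4.91 without ADP-CM and 871 ± 0.712 with it (SD, n = 3 each), 68.1 times the next gene in control. IGF2R followed at 12.0 ± 0.328 in control and 12.0 ± 0.155 in ADP-CM. IRS1 (7.60 ± 0.132 and 8.88 ± 0.238) and IGF1R (7.57 ± 0.108 and 9.11 ± 0.208) came next and on this length did not differ beyond their spread in either group. IGFBP2 held 5.58 ± 0.160 in control and 3.80 ± 0.130 in ADP-CM, and GRB10 held 2.09 ± 0.0782 and 3.05 ± 0.157. Below them were IRS2 (1.86 ± 0.0934 and 1.63 ± 0.0850) and INSR (1.58 ± 0.120 and 1.13 ± 0.00652), whose libraries did not overlap in either group on this length. IGFBP4 (0.112 to 1.03 in control and 0.150 to 1.23 in ADP-CM) and IGFBP6 (0.0434 to 0.0458 and 0.0810 to 0.283) were lowest, and their ranges overlapped in ADP-CM. With the longest transcript as the length, IGF1R stood above IRS1 with no overlap of libraries in either group, GRB10 stood above IGFBP2 in ADP-CM, and the control libraries of IRS2 and INSR overlapped.

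**Figure D4:**
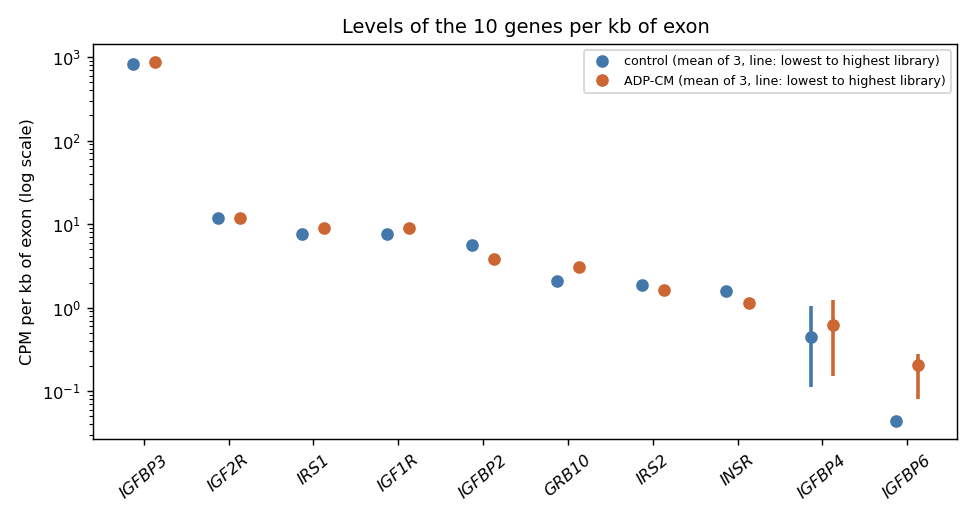
Level of each of the 10 genes as CPM per kb of exon on a log scale, with the mean of 3 libraries as a point and a line from the lowest to the highest library. IGFBP3 lies at 815 in control, IGF2R at 12.0, and IGFBP4 and IGFBP6 lie below 1 on average. On the log scale the widest ranges are those of IGFBP4 in both groups and of IGFBP6 in ADP-CM.

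Across IGFBP1 to IGFBP7, summed per kb, IGFBP3 made up 79.9% ± 0.0927 of the level without ADP-CM and 81.9% ± 0.231 with it (SD, n = 3 each). IGFBP7, a related protein that binds IGFs weakly, made up 19.4% ± 0.153 and 17.6% ± 0.231. IGFBP2 accounted for 0.548% and 0.357%, and IGFBP4, IGFBP5 and IGFBP6 each for at most 0.116% in any library. No read of IGFBP1 was counted in 5 of the 6 libraries. These shares depend on the length used. With the longest transcript, the shares in control and ADP-CM were 83.7% and 85.4% for IGFBP3 and 15.8% and 14.3% for IGFBP7. For IGFBP2 they were 0.355% and 0.231%. On either length the IGFBP3 share was higher, and the IGFBP7 share lower, in every ADP-CM library than in any control library.

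The rest of the pathway was followed in 10 lists, chosen, like the 10 genes, with earlier results of these data known. Besides the 10 genes the lists held 123 others, 103 of them tested. Of these, 22 (21.4%) were raised and 14 (13.6%) lowered, against 13.5% and 13% of all tested genes, and their median log2 fold change was 0.02 against -0.002. Past 1.5-fold were 3 of them, SOCS3, SOCS1 and CITED2. SOCS3 lay close to the limit (0.59 on the log2 scale) and fell short of it without control replicate 1 (log2 fold change 0.57) or ADP-CM replicate 2 (0.57).

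The ligands were near the limit of the counts. IGF1 had 0 reads in all 6 libraries, which does not exclude a level too low to be counted at this depth. INS had 2, 1 and 1 reads in control and 0 in each ADP-CM library. IGF2, named here after its values were seen, had 34, 40 and 36 reads in control and 51, 36 and 46 in ADP-CM and was not called (edgeR, log2 fold change 0.15, adjusted p-value 0.603). On its strand IGF2 shares 43.2% of its annotated exonic bases with other genes, INS-IGF2 among them, so part of its reads may have been left out as ambiguous. Of the 4 receptors listed, INSRR, an orphan relative of INSR, had 0 reads in every library.

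Of the 9 binding proteins listed, 6 were tested, with 2 raised and 3 lowered. Beside the genes above, IGFBP5 rose by 0.47 on the log2 scale, with 4.89 ± 1.57 and 6.82 ± 0.843 CPM (SD, n = 3 each) in control and ADP-CM. This call was lost with DESeq2 and in the fits that left out control replicate 1 (0.25) or 2 (0.51) or ADP-CM replicate 2 (0.51) or 3 (0.37), so 1 raised gene remained in each case. IGFBP7 fell from 381.9 ± 5.71 to 361.1 ± 5.51 CPM (SD, n = 3 each), by 0.08 on the log2 scale. IGFBPL1, a secreted IGFBP-like protein, fell by 0.25 from 17.1 ± 0.430 to 14.4 ± 0.734 CPM. Both lost the call, leaving 1 lowered gene, in the fits that left out control replicate 1 (-0.07 and -0.24) or 2 (-0.08 and -0.27) or ADP-CM replicate 2 (-0.07 and -0.24), and IGFBPL1 also with DESeq2 and without control replicate 3 (-0.24) or ADP-CM replicate 3 (-0.22). IGFALS, which holds IGFBP3 in the large serum complex, had 0 reads.

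Of 10 proteases that cut IGFBPs and their inhibitors, 4 were tested, with 1 raised and 2 lowered. STC2, a stanniocalcin that blocks PAPPA, rose by 0.37 on the log2 scale, from 76.5 ± 0.570 to 98.8 ± 0.905 CPM (SD, n = 3 each). CTSD, a lysosomal protease carried by IGF2R, fell by 0.34 on the log2 scale from 440.4 ± 2.17 to 347.3 ± 8.73 CPM, and HTRA1, a secreted serine protease, fell by 0.26 from 31.2 ± 1.49 to 26.0 ± 1.53 CPM. By edgeR the largest adjusted p among these 3 genes was 0.000265. PAPPA was not tested, its reads numbering 3, 4 and 7 without ADP-CM and 10, 7 and 6 with it.

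Among 16 adaptors, 14 were tested, of which 3 were raised and 1 lowered. Besides IRS1, SHC1 rose with a log2 fold change of 0.32, from 157.9 ± 7.15 to 197.1 ± 0.364 CPM (SD, n = 3 each), and CBL, a ubiquitin ligase that also docks on receptors, rose by 0.25. DOK4, a docking protein of the insulin receptor, was lowered at 4.74 ± 0.219 against 3.26 ± 0.461 CPM. The DOK4 call (-0.54) was lost with DESeq2 and in the fits that left out control replicate 1 (-0.51) or 2 (-0.53) or ADP-CM replicate 1 (-0.53) or 2 (-0.45), which left 0 lowered adaptors. GRB2 was not called, at 162.9 ± 2.82 and 155.8 ± 2.75 CPM; it, PTPN1, AKT1 and AKT2 were named after their values were seen.

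Of the 15 inhibitors that act at the receptor, all were tested, and 4 were raised and 1 was lowered. GRB10 was joined by SOCS3 (log2 fold change 0.59), SOCS6 (0.25) and the receptor phosphatase PTPRF (0.18), each from genes that restrain insulin signalling. SOCS1 fell from 1.35 ± 0.0639 to 0.602 ± 0.110 CPM (SD, n = 3 each), by 1.16 on the log2 scale, on at most 24 reads a library. That call was lost with DESeq2 and without control replicate 2 (-1.13) or ADP-CM replicate 3 (-1.03), and SOCS1 was not tested with at least 10 reads asked of every library. PTPN1, a phosphatase that acts on INSR, was not past the threshold, at 144.2 ± 1.43 and 138.5 ± 3.56 CPM without and with ADP-CM.

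Of the 38 genes of PI3K, AKT and mTOR signalling, 37 were tested, and 10 were raised and 2 lowered, with a median log2 fold change of 0.032. DEPTOR, an inhibitor of mTOR, rose by 0.50 on the log2 scale, from 16.2 ± 0.790 to 22.9 ± 0.656 CPM (SD, n = 3 each). TBC1D4, an AKT substrate that controls glucose transporter traffic, rose by 0.36 on that scale, and EIF4EBP1, a repressor of translation that mTOR inactivates, rose by 0.25. Its relative EIF4EBP2 fell by 0.23, from 190.9 ± 1.75 to 163.0 ± 3.08 CPM. All 4 kept their call in each alternative. The number raised was 6 with DESeq2 and when control replicate 1 or 3 or ADP-CM replicate 1 was left out, and the number lowered was 1 with DESeq2 and when control replicate 1 or 2 or ADP-CM replicate 2 was left out. AKT1 and AKT2 were not called, with log2 fold changes of -0.02 and 0.04.

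In the RAS and ERK arm, 15 of 15 genes were tested, with 1 raised and 1 lowered. RPS6KA3, an ERK-activated kinase, rose with a log2 fold change of 0.16, from 104.0 ± 2.83 to 116.6 ± 3.13 CPM (SD, n = 3 each). HRAS fell by 0.14 on the log2 scale, a call that was lost with DESeq2 and in the fits that left out control replicate 1 (-0.14) or 2 (-0.13) or ADP-CM replicate 3 (-0.12), leaving 0 lowered genes there.

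FOXO transcription factors are held out of the nucleus when AKT is active. Of 24 genes that they are known to induce, those called went in both directions. Of the 18 tested, 4 were raised and 5 lowered, with a median log2 fold change of 0.01. CITED2, a transcriptional coregulator, fell by 0.75 on the log2 scale, and CDKN1B, the cyclin-dependent kinase inhibitor p27, fell by 0.29 from 100.1 ± 1.84 to 82.1 ± 2.30 CPM (SD, n = 3 each). SOD2, a mitochondrial superoxide dismutase, rose from 82.4 ± 2.59 to 110.7 ± 1.47 CPM, a log2 fold change of 0.43, and PINK1, a mitochondrial kinase, rose by 0.29. INSR, among the lowered genes, also belongs to this list, and the number lowered was 3 with DESeq2. Of the 3 proteins that bind IGF2 mRNA, 2 were tested. IGF2BP2 rose by 0.51 on the log2 scale, from 6.43 ± 0.459 to 9.19 ± 0.996 CPM (SD, n = 3 each), whereas IGF2BP3 fell by 0.14 from 148.8 ± 0.386 to 134.9 ± 4.63 CPM.

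**Figure D5:**
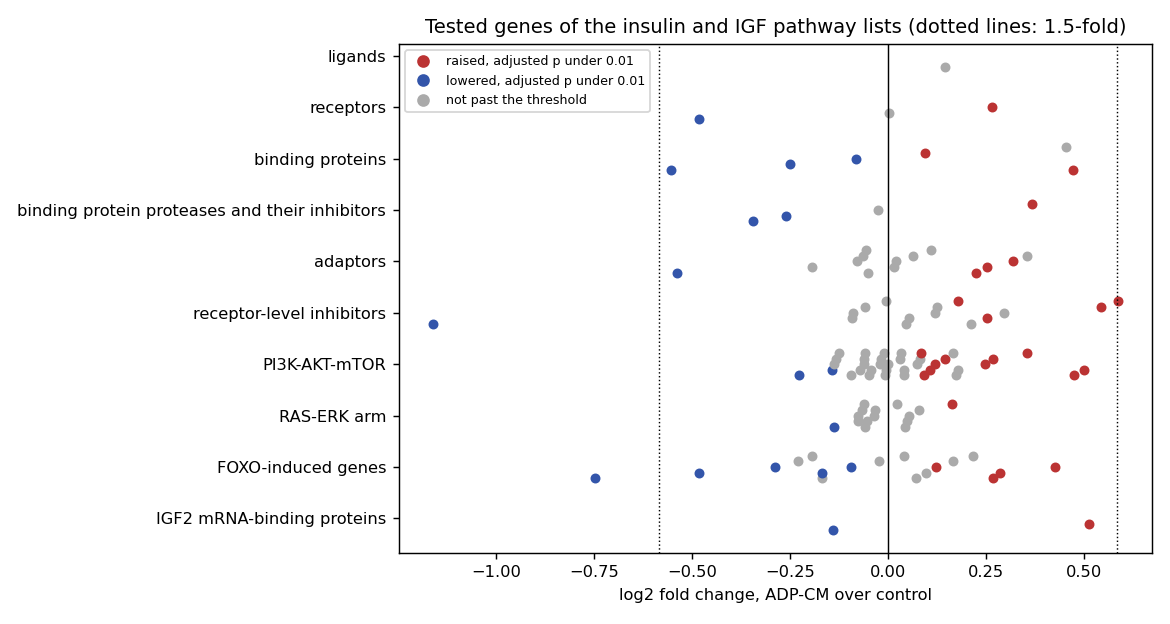
Log2 fold change of ADP-CM over control for every tested gene of the 10 pathway lists, 1 point per gene, red where raised and blue where lowered at an adjusted p-value under 0.01. SOCS1 (-1.16), CITED2 (-0.75) and SOCS3 (0.59) lie past the dotted 1.5-fold lines.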

How the data were processed

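RNA was sequenced as stranded poly(A) libraries from 3 control and 3 ADP-CM samples of RL95-2 cells. Raw counts per RefSeq gene, made by the authors with TopHat2 on hg19 and then HTSeq, were deposited as 1 file per library. Program versions and the strand setting are not given in the sources used here, and multiply aligned reads are not counted by HTSeq. The 5 summary lines (reads on no gene among them) entered neither library sizes nor tests.

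In R 4.3.3, counts were filtered with filterByExpr (12663 of 23228 genes), scaled by TMM and compared with edgeR 4.0.16 (quasi-likelihood F-test), with p-values adjusted after Benjamini and Hochberg. DESeq2 1.42.0, DESeq2 size factors, plain library sizes, no filter, at least 10 reads in every library, the replicate number as a term, and each library left out were alternatives. Named list genes are up to 4 called non-members per list with the smallest p-values. CPM are TMM-normalized values computed here, log2 CPM used a prior count of 2, and exon lengths and positions came from GENCODE release 44 on GRCh37. Every replicate pair differed by more than counting noise, but the excess was small. The chi-square over its degrees of freedom ran from 1.23 to 2.05 between pairs. The common coefficient of variation beyond counting noise, as fitted by edgeR, was 1.67%. The 10 genes and all lists were chosen with earlier results of these data known.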

Additional observations from a re-analysis of the deposited data

How the results depend on the processing

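The 6 calls among the 10 genes held, with their direction, under each of the 12 alternative settings, and log2 fold changes of these genes ran from -0.54 to -0.42 for INSR, from -0.57 to -0.53 for IGFBP2 and from 0.51 to 0.58 for GRB10. Of all genes, DESeq2 called 1124 raised and 1015 lowered, against 1707 and 1650 with edgeR. With single libraries left out, edgeR called 1347 to 1632 raised and 1281 to 1574 lowered. Calls lost from the lists under these settings are to be read against the fewer calls over the whole table. The median log2 fold change over all genes lay between -0.003 and 0.001 under every setting. The replicate block left 4 genes of the axis raised and 2 lowered and gave IGFBP4 a log2 fold change of 0.48 (edgeR, adjusted p-value 0.18). Same-numbered libraries deviated together only weakly (correlations of 0.066, 0.037 and 0.089 across 12137 genes), although each library correlated best with its own number in the other group, so the block is reported here alone.

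With DESeq2 the lists gave 1 raised binding protein, 0 lowered adaptors, 0 lowered receptor-level inhibitors, 6 raised and 1 lowered PI3K-AKT-mTOR genes, 0 lowered RAS-ERK genes and 3 lowered FOXO-induced genes. At least 10 reads in every library also left 0 lowered receptor-level inhibitors. Leaving out single libraries gave 1 to 3 raised and 1 to 3 lowered binding proteins, 0 to 1 lowered adaptors, 0 to 2 lowered receptor-level inhibitors, 6 to 8 raised and 1 to 3 lowered PI3K-AKT-mTOR genes and 0 to 1 lowered RAS-ERK genes. Past 1.5-fold it gave 0 to 1 of the 10 genes (IGFBP4 without control replicate 3), and with both replicates 3 left out 1 (IGFBP2). IGF2R changed sign around 0 (-0.010, -0.005, -0.003 and -0.002 without control replicate 1 or 3 or ADP-CM replicate 1 or 2, and at most 0.026). IGFBP4 ran from -0.53 to 2.02, SPTSSB from -0.64 to 1.05, S100A14 from -0.27 to 1.68 and EEF1A2 from -0.15 to 1.13. EEF1A2 was also called with no filter (0.70) and with the replicate block (0.69). Per kb, IGFBP3 was 67.3 to 69.2 times the next gene with single libraries left out and 74.4 times with the longest transcript. Depth limits IGFBP4, IGFBP6, IGF2 and PAPPA, each with at most 51 reads in a library.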

Other observations

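Replicate 3 stood at least 2-fold above both other libraries of its group in 6 genes in control and 9 in ADP-CM, of 12137 with a mean of at least 1 CPM, and 4 genes did so in both groups: IGFBP4, S100A14, SPTSSB and TFF1. TFF1, a secreted trefoil peptide of mucosal epithelium, had 9, 86 and 225 reads without ADP-CM and 52, 34 and 502 with it, in the order of the replicates. For replicate 1 the same count was 1 gene in each group and for replicate 2 it was 0, with 0 genes in both groups. This count was chosen after the reads of IGFBP4 were seen, and it has no test.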
